A study of Mus musculus with 30 samples.

Results

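Splicing regulators were followed in mouse embryonic fibroblasts whose p53 gene can be switched on. The group held 38 genes in 3 classes: 21 heterogeneous nuclear ribonucleoproteins (hnRNPs) with the PTB proteins, 10 serine/arginine-rich (SR) and Tra2 proteins, and 7 tissue regulators of the MBNL, CELF, RBFOX and ELAV families. hnRNP-K itself was left out as the target of 1 of the siRNAs. Each gene was read from the probe set with 1 gene symbol that had the highest mean over all 30 arrays. Such a probe set existed for 36 of the 38 genes, and all 36 passed the filter on low values, among 12674 tested genes. Hnrnpa3 was covered only by 4 probe sets shared with another gene, and Srsf7 was not analysed here.

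All cells came from E13.5 embryos of the strain C57BL/6 x 129SvJ and carried p53 LSL/LSL alleles, in which a stop cassette keeps p53 silent until Cre recombinase removes it. In the time course, cells received an adenovirus with Cre (AdenoCre) or with GFP (AdenoGFP) for 24 h and then 500 nM doxorubicin, a DNA-damaging drug, for 0, 1, 3, 6 or 9 h, with 1 array for each virus and time. In the 2 siRNA experiments every group, the controls included, had AdenoCre for 24 h, siRNA for 24 h and 100 nM doxorubicin for 13 h. The experiment called lincP21KD had siRNA against p53 (siP53, 3 arrays), against lincRNA-p21 (siLincp21, 3 arrays) and a non-targeting pool (siControl, 2 arrays). The experiment called hnRNPKKD had 3 arrays each of siP53, siLincp21, siRNA against hnRNP-K (siHnrnpk) and siControl. Since Cre is what restores p53, the return of p53 and any other effect of the 2 viruses cannot be told apart in the time course. Nothing in the labels says that replicates were separate cultures, so p-values measure only the spread between these arrays, and fewer cells of a type cannot be told apart from less RNA per cell.

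Splicing regulators decide which exons a transcript keeps. SR proteins bind exonic enhancers and recruit the splicing machinery, whereas many hnRNPs bind silencers and block it. The PTB proteins bind pyrimidine-rich tracts, and a switch from Ptbp1 to Ptbp2 accompanies neuronal differentiation. MBNL and CELF proteins drive opposite choices at many of the same exons in muscle and heart. Many regulators of both classes also control their own messages through poison exons or retained introns, so different probe sets of 1 gene can read different transcripts.

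Promoter sequences are shown for 5 members on which the results turn: the paralogs Hnrnpr and Syncrip, which fell with AdenoCre, the paralogs Mbnl3 and Mbnl1, which had the largest siRNA changes, and Ptbp2, a paralog of Ptbp1 and Ptbp3. Each line gives the 250 bases before an annotated start in RefSeq (GRCm38.p6), 5′ to 3′ on the strand of the gene. Capitals mark matches, on either strand, to the C-tract CCCTCCC of the kind that hnRNP-K binds, to the p53 half-site consensus, to CCAAT (the CCAAT box), or to the E2F-type letters TTTGGCGC or TTTCCCGC.
Hnrnpr, chr4:136310692-136310941, plus strand: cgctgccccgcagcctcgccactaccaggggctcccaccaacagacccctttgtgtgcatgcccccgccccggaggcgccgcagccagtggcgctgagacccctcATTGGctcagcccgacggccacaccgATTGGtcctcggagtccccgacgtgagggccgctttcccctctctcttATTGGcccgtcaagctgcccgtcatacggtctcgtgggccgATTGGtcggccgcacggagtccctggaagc
Syncrip, chr9:88482398-88482647, minus strand: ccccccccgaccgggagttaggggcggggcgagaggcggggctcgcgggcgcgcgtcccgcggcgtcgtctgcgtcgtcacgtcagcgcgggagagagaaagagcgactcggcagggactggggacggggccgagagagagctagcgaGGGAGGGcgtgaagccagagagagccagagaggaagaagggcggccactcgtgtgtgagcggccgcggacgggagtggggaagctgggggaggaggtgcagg
Mbnl3, chrX:51205991-51206240, minus strand: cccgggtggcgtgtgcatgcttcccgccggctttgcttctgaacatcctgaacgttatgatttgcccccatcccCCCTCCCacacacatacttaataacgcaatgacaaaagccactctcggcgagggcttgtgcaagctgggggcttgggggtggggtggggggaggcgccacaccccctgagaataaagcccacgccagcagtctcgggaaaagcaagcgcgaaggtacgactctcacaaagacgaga
Mbnl1, first start, chr3:60472580-60472829, plus strand: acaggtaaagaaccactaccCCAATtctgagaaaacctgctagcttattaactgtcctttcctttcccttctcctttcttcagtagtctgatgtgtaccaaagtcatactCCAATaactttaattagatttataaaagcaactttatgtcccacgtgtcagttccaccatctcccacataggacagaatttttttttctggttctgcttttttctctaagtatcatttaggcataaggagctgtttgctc
Mbnl1, second start, chr3:60500929-60501178, plus strand: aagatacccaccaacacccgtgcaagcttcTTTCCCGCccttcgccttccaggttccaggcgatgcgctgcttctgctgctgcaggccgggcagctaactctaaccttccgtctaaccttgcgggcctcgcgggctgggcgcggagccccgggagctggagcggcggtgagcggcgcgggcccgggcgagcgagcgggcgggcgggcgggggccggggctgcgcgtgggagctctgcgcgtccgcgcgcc
Ptbp2, chr3:119783389-119783638, minus strand: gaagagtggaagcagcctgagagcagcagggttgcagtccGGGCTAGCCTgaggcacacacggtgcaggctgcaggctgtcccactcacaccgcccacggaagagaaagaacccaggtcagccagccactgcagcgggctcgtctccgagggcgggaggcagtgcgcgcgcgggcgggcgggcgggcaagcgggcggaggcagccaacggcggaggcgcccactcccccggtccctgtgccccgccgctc

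The Hnrnpr window shown held 4 CCAAT boxes, the Syncrip and Mbnl3 windows 1 C-tract each, and the Ptbp2 window 1 p53 half-site. Hnrnpr has a second annotated start, whose window is not shown and held 0 CCAAT boxes and 1 E2F-type match. The promoter table had 52 windows for 35 of the 38 members, and genes with several starts contribute overlapping windows. The C-tract was present in 16 of these 52 windows (30.8%), against 19.7% of all 32851 windows in the table. CCAAT occurred in 42.3% against 33.8%, the E2F-type letters in 11.5% against 1.30%, and the p53 half-site in 1.92% against 7.13%. None of the 52 windows held 2 p53 half-sites within 13 bases of each other, which 0.0639% of all windows did. The members' windows were also richer in G and C, with a median of 62.6% against 52.4%. These matches describe letters in the windows and say nothing of binding.

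Values are log2 RMA signal, differences are on that scale with standard errors (±), and a member is called at an adjusted p below 0.05 from limma over all tested genes. The 3 experiments were normalised separately and no level is compared between them. The median over the tested genes ran from 8.02 to 8.33 on the time course arrays, from 8.31 to 8.40 for lincP21KD and from 7.98 to 8.10 for hnRNPKKD. The 15 fibroblast markers were all above the filter, from the 56.0th (Lum) to the 99.96th percentile (Vim), and 1 of 8 endothelial markers passed it. The difference between the 3′ and 5′ Actb control probe sets, a sign of RNA quality, ranged from 0.17 to 1.14 in the hnRNPKKD experiment and from 0.12 to 0.33 in the other 2. Its extremes were both siP53 arrays: 0.69, 0.17 and 1.14 on replicates 1, 2 and 3. Array 2 of that group also had the most Cdkn1a, 11.41 against 10.52 and 10.61. Hnrnpk stood at 8.38, 8.34 and 9.94 on the siHnrnpk arrays and at 12.68, 12.03 and 12.47 on their controls, a difference of -3.51 ± 0.35. Cdkn1a, a p53 target, differed by -2.07 ± 0.11 with siP53 in the lincP21KD experiment and by -2.64 ± 0.18 in the hnRNPKKD experiment. The transcripts of p53 and lincRNA-p21 were not analysed here.

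Most of the listed splicing regulators were lower in AdenoCre than in AdenoGFP cells, though most were not called. Of the 36 members, 8 fell and 0 rose, while 6.24% of all tested genes fell and 12.9% rose. The members' median difference was -0.22, against 0.04 over all tested genes, and 31 of 36 differences were negative. hnRNPs made up 5 of the 8 (Hnrnpr, Syncrip, Hnrnpd, Hnrnph2 and Hnrnpa2b1), SR proteins 2 (Srsf2 and Tra2b) and tissue regulators 1 (Mbnl3). The differences of all 9 SR members were negative, from -0.48 to -0.06. Centring each array moved the median of all genes to -0.07 and the share of higher among all calls from 67.4% to 45.2%, and quantile scaling moved that share to 51.5%. The members' median was -0.32 after centring and -0.24 after quantile scaling.

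Markers of several cell types also differed between the viruses. Of 15 fibroblast markers 1 rose and 3 fell with AdenoCre, among them Lum (-1.22 ± 0.21) and Pdgfrb (-0.64 ± 0.11), and their mean level was 12.56 to 12.72 on the AdenoGFP and 12.36 to 12.58 on the AdenoCre arrays. Of 6 tested macrophage markers 2 rose, Cd14 (1.29 ± 0.28) and Cd68 (0.81 ± 0.17). Of 5 epithelial markers 1 rose, Krt19 (1.36 ± 0.16), and 2 fell, Krt18 (-1.05 ± 0.22) and Krt8 (-0.64 ± 0.11). The muscle actin Acta1 rose by 1.96 ± 0.15, alone among 5 muscle markers, and 1 of 8 neural markers fell. The mean level ran from 4.93 to 5.11 (AdenoGFP) and 4.99 to 5.33 (AdenoCre) for the macrophage list. It ran from 5.13 to 5.35 and 5.08 to 5.24 for the epithelial list. Their part in the members' differences was not tested.

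Hnrnpr, an RNA-binding protein close to Syncrip, stood at 11.39, 11.57, 11.56, 11.13 and 10.90 in AdenoGFP cells at 0, 1, 3, 6 and 9 h and at 11.11, 10.77, 10.28, 10.40 and 10.39 in AdenoCre cells. It was lower with AdenoCre at every time, with an average difference of -0.72 ± 0.14 (adjusted p = 0.0109), although the 2 groups overlapped. Its 3 other probe sets had differences from -0.52 to -0.17. Syncrip, which binds RNA in the cytoplasm and nucleus, read 11.07, 10.88, 11.03, 10.69 and 10.56 with AdenoGFP and 10.86, 10.26, 10.60, 9.91 and 9.94 with AdenoCre. Again each time point was lower with AdenoCre, with an average difference of -0.53 ± 0.10 (adjusted p = 0.0105), and the 4 other probe sets had differences from -0.68 to -0.33.

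Srsf2, an SR protein that promotes exon inclusion, was at 12.94, 12.72, 12.85, 12.66 and 12.44 in AdenoGFP cells and 12.65, 12.49, 12.08, 11.99 and 12.18 in AdenoCre cells. The gap was widest at 3 h (-0.77) and averaged -0.44 ± 0.11 (adjusted p = 0.0257), and its 3 other probe sets gave smaller differences of -0.21 to -0.14. Mbnl3, the MBNL member usually highest in fetal and proliferating cells, read 7.49, 7.49, 7.21, 7.57 and 8.06 with AdenoGFP and 7.23, 6.44, 6.89, 7.33 and 7.29 with AdenoCre. All 5 pairs were lower with AdenoCre, with an average of -0.53 ± 0.14 (adjusted p = 0.0292).

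Hnrnpd, also known as AUF1, which binds AU-rich elements, was the called member whose groups did not overlap: AdenoGFP arrays lay at 12.17, 12.04, 12.08, 12.09 and 12.04 and AdenoCre arrays at 11.81, 11.87, 11.76, 11.52 and 11.38. The difference was -0.41 ± 0.10 (adjusted p = 0.021). Hnrnph2, which like Hnrnph1 binds G-rich tracts, read 10.85, 10.84, 10.94, 10.60 and 10.61 with AdenoGFP and 10.73, 10.15, 10.26, 10.42 and 10.26 with AdenoCre. Only its 0 h AdenoCre array reached the range of the AdenoGFP arrays. It differed by -0.40 ± 0.11 (adjusted p = 0.039), Tra2b by -0.35 ± 0.10 (adjusted p = 0.0454) and Hnrnpa2b1 by -0.30 ± 0.08 (adjusted p = 0.0396). Tra2b, an SR-like enhancer-binding protein, was nearly equal on the 0 h arrays, where the difference was -0.01, and between -0.61 and -0.27 at the later times. Hnrnpab and Hnrnpm also had groups that did not overlap, with differences of -0.23 and -0.22 that missed the threshold (adjusted p = 0.0948 and 0.0935). Among members that were not called, Tra2a (-0.48, adjusted p = 0.0547) and Hnrnpdl (-0.31, adjusted p = 0.0519) came closest, and Ptbp1 differed by 0.12 ± 0.12.

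The count of 8 depended on single times. Without the 3 h arrays 2 members were called, without the 6 h or the 9 h arrays 3, without the 1 h arrays 4, without the 0 h arrays 7, and without pairing by time 2. Hnrnpr kept its call whichever time was left out, as did Syncrip. Srsf2 lost it without the 3 h (-0.36, adjusted p = 0.0989) or 6 h arrays (-0.39, adjusted p = 0.0761). Mbnl3 lost it without the 1, 3 or 9 h arrays (-0.58 to -0.40), Hnrnpd without the 3, 6 or 9 h arrays (-0.44 to -0.35), and Hnrnph2 (-0.46 to -0.33) and Tra2b (-0.37 to -0.29) without any of 1, 3, 6 and 9 h. Hnrnpa2b1 lost it at every left-out time (-0.33 to -0.26). On the mean of their probe sets Hnrnpd (-0.21), Srsf2 (-0.24) and Mbnl3 (-0.35) were not called.

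**Figure D1:**
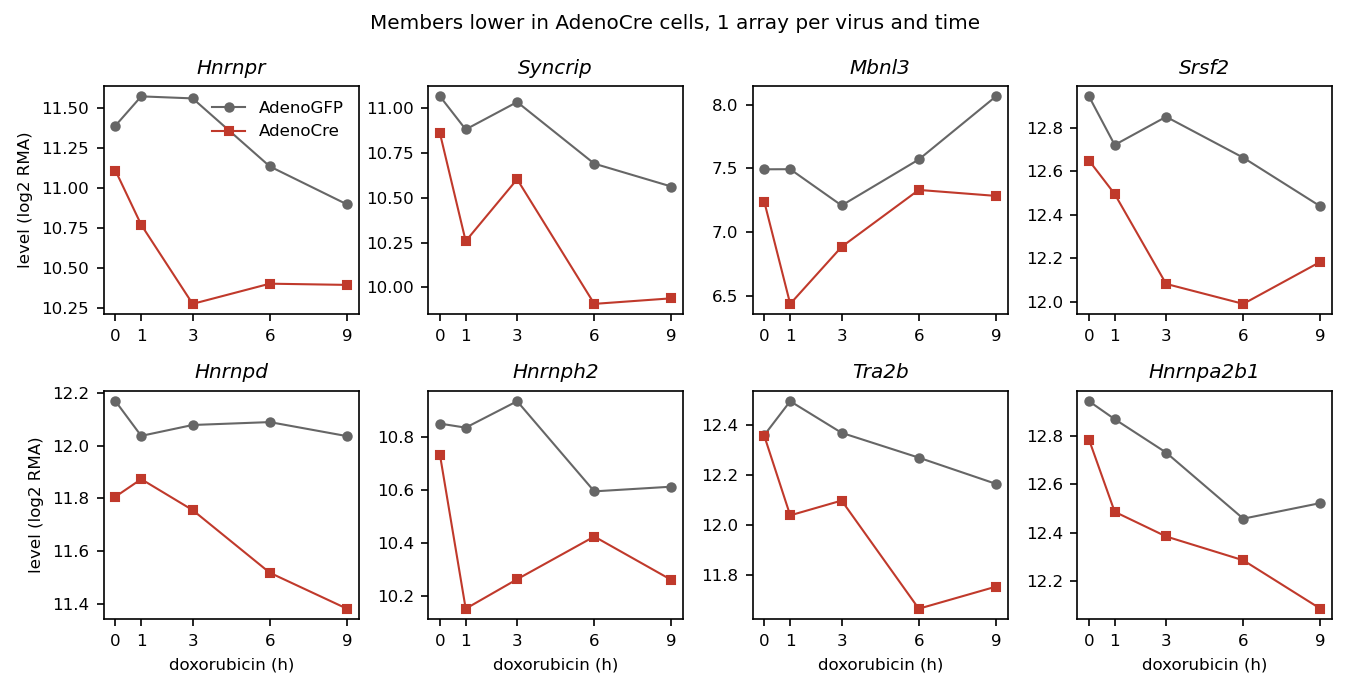
Levels (log2 RMA) of the 8 members that were lower in AdenoCre cells, against hours of doxorubicin, with 1 array per point, AdenoGFP in grey circles and AdenoCre in red squares. The AdenoCre point lies below the AdenoGFP point at all 5 times in each panel, and for Tra2b the 0 h points differ by 0.01.

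The members' median difference between the viruses was already -0.12 at 0 h, before the drug, with 28 of 36 members lower. At 1, 3, 6 and 9 h it was -0.27, -0.18, -0.18 and -0.24. Over all tested genes the medians at the 5 times were 0.03, 0.12, 0.06, 0.08 and -0.03.

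The slope on hours of doxorubicin was fitted for each virus. In AdenoGFP cells 0 members were called, against 0.00789% of all genes. At an unadjusted p below 0.05 (limma) there were 6 members, and the share of all genes at that level is not given here. In AdenoCre cells 2 members fell with time and 0 rose, against 1.45% and 3.95% of all genes. These were Hnrnpa0, an hnRNP A/B relative that read 12.18, 12.06, 12.11, 11.79 and 11.59 in AdenoCre cells, at -0.06 ± 0.02 per h (adjusted p = 0.0396), and Hnrnpc, a core protein of nascent transcript particles, at -0.06 ± 0.01 per h (adjusted p = 0.0374). Hnrnpc read 13.44, 13.48, 13.30, 13.07 and 12.93 in AdenoCre cells and 13.46, 13.44, 13.35, 13.23 and 13.08 in AdenoGFP cells, so its level was lowest at 9 h with both viruses. Both calls were lost when any 1 time was left out. For the difference in slope between the viruses 0 members were called, against 0.181% of all genes, and 1 member had an unadjusted p below 0.05 (limma).

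The siRNA comparisons gave more calls for the members in the hnRNPKKD than in the lincP21KD experiment, as they did for all genes. In the lincP21KD experiment siP53 called 0 members, against 12.7% of all genes called. At an unadjusted p below 0.05 (limma) there were 4 members, without a share of all genes at that level. siLincp21 lowered 4 members and raised 0 there, against 4.39% and 7.47% of all genes. In the hnRNPKKD experiment siP53 raised 7 members and lowered 1, against 19.3% and 19.2% of all genes, so the members' share of calls, 22.2%, was below that of all genes. siLincp21 raised 3 and lowered 9, against 17.2% and 11.8%. siHnrnpk raised 3 and lowered 11, against 14.1% and 12.8%. The members' median difference in that experiment was 0.13 with siP53, -0.13 with siLincp21 and -0.22 with siHnrnpk, where the medians of all genes were -0.01, 0.01 and 0.00. The 3 comparisons share their control arrays, so their values stand side by side and were not correlated. By class, siHnrnpk changed 6 of 20 hnRNPs, 4 of 9 SR members and 4 of 7 tissue regulators. Without siP53 replicate 2 the siP53 calls rose to 19, and without siControl replicate 3 the siLincp21 calls fell to 6. The shares of all genes called in these 2 fits are not given here.

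**Figure D2:**
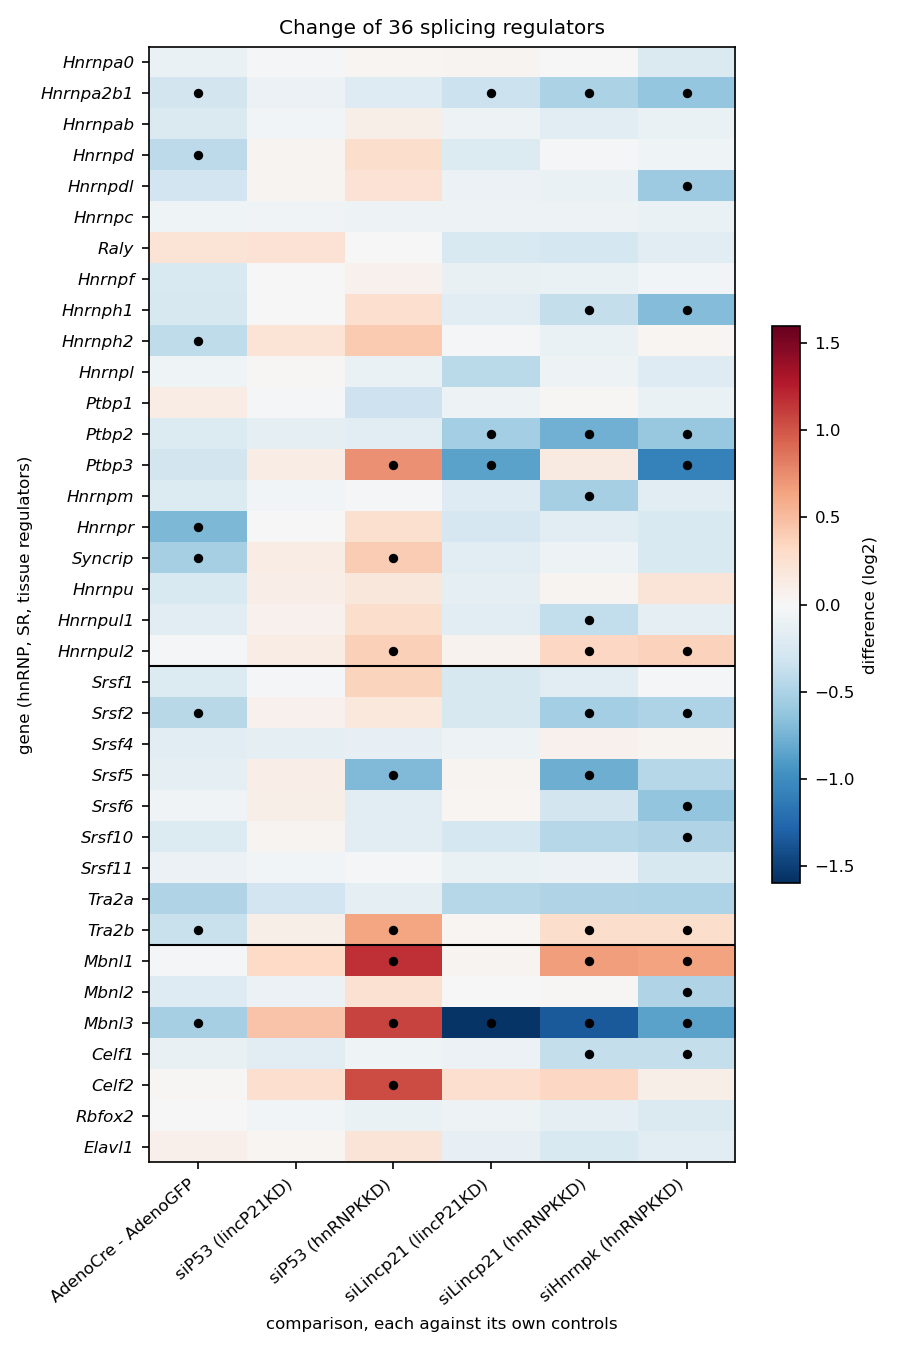
Difference (log2, colour) of each of the 36 members in 6 comparisons against their own controls, with a black dot where the adjusted p was below 0.05 and black lines between hnRNPs, SR members and tissue regulators. Mbnl3 stands at -1.57 and -1.35 under siLincp21, Mbnl1 at 1.17 under siP53 and Ptbp3 at -1.09 under siHnrnpk.

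The 3 muscleblind genes moved apart from one another. Mbnl3 fell with both lincRNA-p21 knockdowns and with siHnrnpk and rose with siP53 in the hnRNPKKD experiment. In the lincP21KD experiment its level was 7.53 and 7.56 in the controls, 5.94, 6.28 and 5.70 with siLincp21 and 7.95, 8.08 and 7.96 with siP53. The siLincp21 arrays lay below all others, with a difference of -1.57 ± 0.14 from the controls (adjusted p = 0.000421), and the siP53 difference of 0.45 ± 0.14 missed the threshold (adjusted p = 0.0637). In the hnRNPKKD experiment it was 7.02, 6.67 and 6.93 in the controls, 8.11, 7.49 and 8.25 with siP53, 5.39, 5.59 and 5.59 with siLincp21 and 6.02, 5.80 and 6.24 with siHnrnpk. No 2 of these 4 groups overlapped. The differences from the controls were 1.08 ± 0.18 with siP53 (adjusted p = 0.000474), -1.35 ± 0.18 with siLincp21 (adjusted p = 0.000156) and -0.85 ± 0.18 with siHnrnpk (adjusted p = 0.00376).

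These 4 Mbnl3 calls held under every alternative, but the size depended on the probe set. The other 2 probe sets gave 0.66 and 0.83 with siP53, -0.62 and -0.46 with siLincp21 in the lincP21KD experiment, -0.13 and -0.37 with siLincp21 in the hnRNPKKD experiment, and -0.24 and 0.00 with siHnrnpk.

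Mbnl1, the main muscleblind protein of adult tissues, rose in all 3 knockdowns of the hnRNPKKD experiment. Its controls read 11.12, 11.41 and 11.15, siP53 12.45, 12.25 and 12.48, siLincp21 11.83, 11.82 and 12.04, and siHnrnpk 11.76, 11.86 and 11.99. Every knockdown array was above every control array. The increases were 1.17 ± 0.11 (adjusted p = 6.66e-06), 0.67 ± 0.11 (adjusted p = 0.000744) and 0.64 ± 0.11 (adjusted p = 0.00106). In the lincP21KD experiment the controls read 11.89 and 12.07, siP53 12.24, 12.41 and 12.26, and siLincp21 12.03, 12.13 and 11.94. There siP53 arrays were all above the controls by 0.32 ± 0.09 (adjusted p = 0.0525) and siLincp21 arrays overlapped them, with a difference of 0.05 ± 0.09. A second Mbnl1 probe set near background gave 0.64 with siP53, 0.31 with siLincp21 and 0.09 with siHnrnpk in the hnRNPKKD experiment. The siHnrnpk call was lost on the mean of all Mbnl1 probe sets, also those below the filter (0.14).

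Mbnl2, the third muscleblind gene, fell with siHnrnpk and was also lower with siHnrnpk than with siLincp21 and siP53 in direct tests. It read 11.82, 11.75 and 11.93 in the controls, 11.28, 11.33 and 11.44 with siHnrnpk, 11.86, 11.80 and 11.91 with siLincp21 and 12.07, 11.90 and 12.26 with siP53. The siHnrnpk arrays lay below the other 9, with a difference of -0.48 ± 0.10 from the controls (adjusted p = 0.00352) and -0.50 ± 0.10 from siLincp21 (adjusted p = 0.00255). The latter was lost on the mean of probe sets (-0.27, adjusted p = 0.0775).

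The CELF proteins, which oppose MBNL at many exons, were also split. Celf2 rose with siP53 in the hnRNPKKD experiment, from 9.60, 9.45 and 9.35 to 10.68, 10.18 and 10.67, an increase of 1.04 ± 0.13 (adjusted p = 5.41e-05). Its 2 other probe sets rose by 1.13 and 1.15. With siLincp21 and siHnrnpk it differed by 0.34 ± 0.13 and 0.10 ± 0.13, neither called, and the siHnrnpk arrays read 9.61, 9.52 and 9.57. The lincP21KD levels were 10.41 and 10.47 in the controls and 10.51, 10.94 and 10.67 with siP53. Celf1, the broadly expressed CELF member, fell from 12.43, 12.11 and 12.22 to 11.82, 11.78 and 12.002 with siLincp21 and to 11.88, 11.86 and 11.86 with siHnrnpk. Both differences were -0.39 ± 0.12 (adjusted p = 0.0239 and 0.0251), and all 4 other probe sets had the same sign in both. The first call was lost without siLincp21 replicate 1 or 2 or siControl replicate 1 or 3 (-0.40 to -0.30), and the second without any 1 siHnrnpk array or siControl replicate 1 or 3 (-0.40 to -0.30). Rbfox2 and Elavl1 were not called against the controls in any siRNA comparison, and the siHnrnpk differences had 95% intervals of -0.43 to -0.03 and -0.40 to 0.04.

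**Figure D3:**
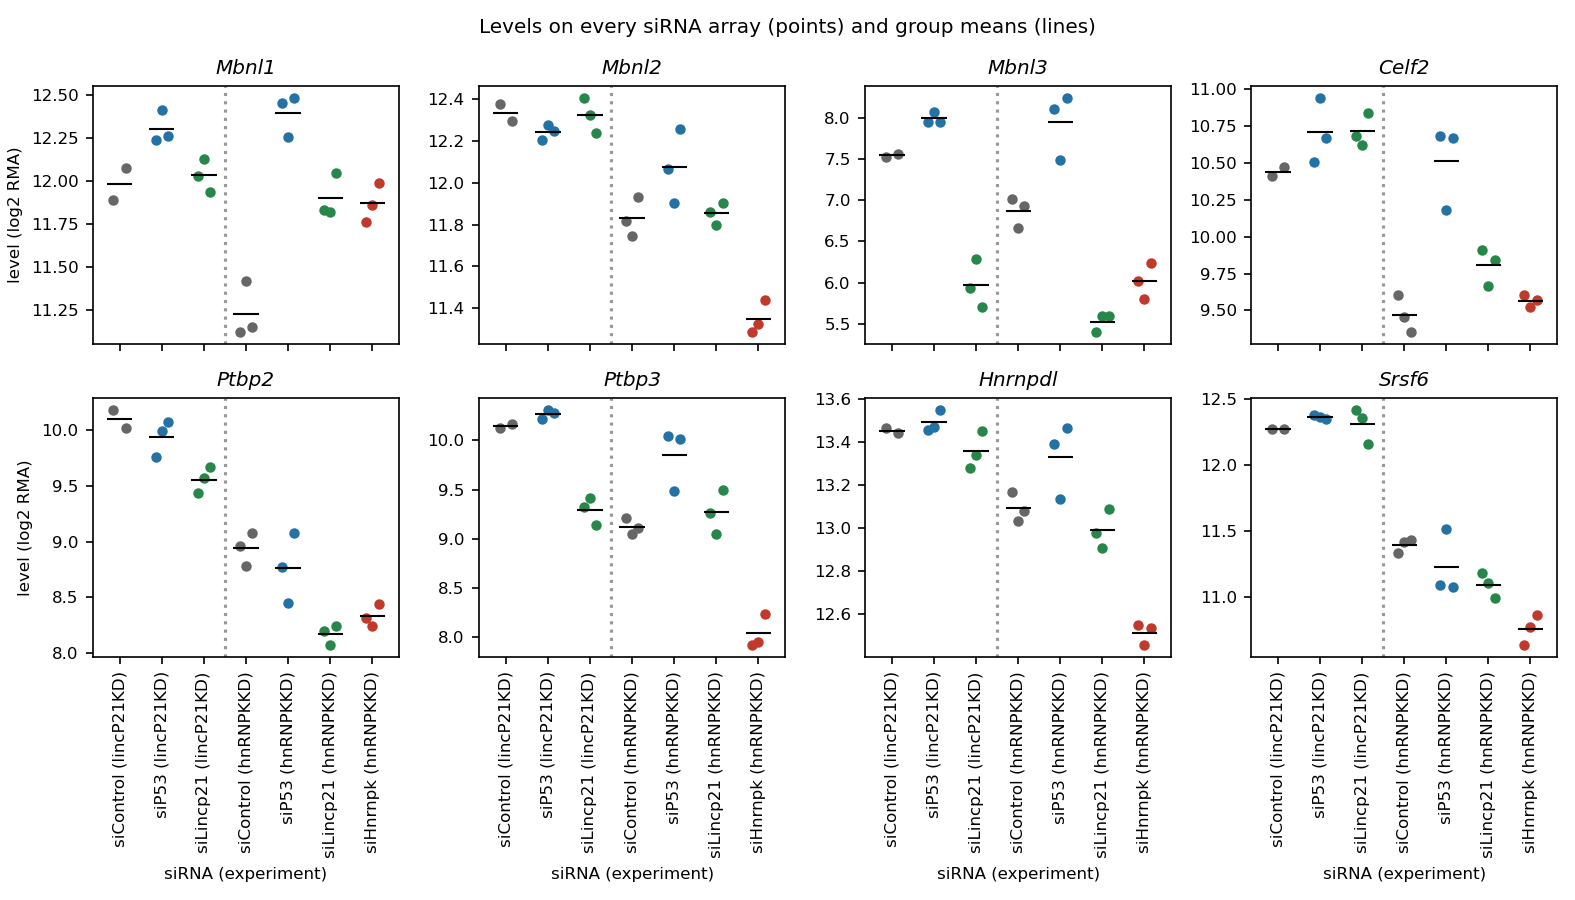
Levels (log2 RMA) of 8 members on every siRNA array (points) with group means (lines), with the lincP21KD experiment left and the hnRNPKKD experiment right of the dotted line, which are normalised separately. Mbnl3 is lowest with siLincp21 in both experiments, and Hnrnpdl, Mbnl2, Srsf6 and Ptbp3 are lowest with siHnrnpk.

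Among the PTB proteins, Ptbp2 fell with siLincp21 and siHnrnpk, and Ptbp1 was not called in any comparison. Ptbp2 stood at 10.18 and 10.02 in the lincP21KD controls and at 9.43, 9.57 and 9.67 with siLincp21, a difference of -0.54 ± 0.11 (adjusted p = 0.0129). All 3 siLincp21 arrays were below both controls. In the hnRNPKKD experiment it was 8.96, 8.78 and 9.07 in the controls, 8.20, 8.08 and 8.24 with siLincp21, 8.32, 8.24 and 8.44 with siHnrnpk and 8.77, 8.45 and 9.07 with siP53. The siLincp21 and siHnrnpk arrays were all below the controls, with differences of -0.77 ± 0.14 (adjusted p = 0.0013) and -0.60 ± 0.14 (adjusted p = 0.00633), while the siP53 arrays overlapped them. The only other Ptbp2 probe set, near background, had smaller differences of the same sign (-0.16, -0.17 and -0.29), and the call in the lincP21KD experiment was lost without siControl replicate 1 (-0.46, adjusted p = 0.134). The siP53 difference of Ptbp2 was -0.17 (adjusted p = 0.358), and -0.49 (adjusted p = 0.0194) on siP53 array 2 alone, the array with a low Actb difference. With the Actb difference as a covariate it was -0.33 (adjusted p = 0.0129).

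Ptbp1, the paralog found in most dividing cells, differed by -0.09 ± 0.08 and 0.02 ± 0.18 with siLincp21 and by -0.11 ± 0.18 with siHnrnpk, the last with a 95% interval of -0.50 to 0.28. Its largest difference was with siP53 in the hnRNPKKD experiment, where it read 10.95, 11.57 and 10.69 against 11.22, 11.50 and 11.51 in the controls. The difference was -0.34 ± 0.18 (adjusted p = 0.164), and siP53 replicate 2 stood above the controls. Without that array it was -0.59 (adjusted p = 0.0013). With array weights, whose estimation did not fully converge, it was -0.51 (adjusted p = 1.69e-05).

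Markers of other cell types moved in groups where Ptbp2 fell and in groups where it was not called. Of 10 listed and 8 tested neural markers, 4 rose and 0 fell with siHnrnpk, among them Nefm by 1.76 ± 0.13, Tubb3 by 1.73 ± 0.15 and Map2 by 0.77 ± 0.16. With siLincp21 3 rose and 1 fell in the hnRNPKKD experiment and 2 rose in the lincP21KD experiment, Map2 by 1.40 ± 0.16 and 1.15 ± 0.09. With siP53 2 rose and 3 fell in the hnRNPKKD experiment, among them Map2 (0.94 ± 0.16), Sox2 (-1.77 ± 0.13) and Gap43 (-2.00 ± 0.36). With siP53 in the lincP21KD experiment 3 rose and 1 fell, led by Stmn2 (1.00 ± 0.11) and Tubb3 (0.88 ± 0.12). The mean level of the neural list in the hnRNPKKD experiment was 6.97 to 7.04 with siHnrnpk, 6.57 to 6.74 with siLincp21, 5.85 to 6.28 with siP53 and 6.47 to 6.66 in the controls. Among 5 tested epithelial markers Krt18 was lower in all 3 knockdowns of the hnRNPKKD experiment, by -2.91 ± 0.13 with siHnrnpk, -3.02 ± 0.13 with siLincp21 and -3.16 ± 0.13 with siP53, and by -0.72 ± 0.09 with siLincp21 in the lincP21KD experiment. Their part in the Ptbp2 result was not tested.

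Ptbp3, the paralog best known from blood cells, gave different answers in the 2 experiments. In the lincP21KD experiment it was 10.12 and 10.17 in the controls and 9.32, 9.42 and 9.14 with siLincp21. All siLincp21 arrays were lower, with a difference of -0.85 ± 0.09 (adjusted p = 0.000883), and the other 2 probe sets differed by -0.79 and -0.88. In the hnRNPKKD experiment siLincp21 gave 9.26, 9.05 and 9.50 against 9.21, 9.05 and 9.11, so the groups overlapped, and the difference was 0.15 ± 0.16 with 0.49 and 0.36 on the other probe sets. The effect of siLincp21 differed between the experiments by 1.00 ± 0.21 (adjusted p = 0.00505), under every alternative. With siHnrnpk the chosen probe set fell to 7.92, 7.95 and 8.24, a difference of -1.09 ± 0.16 (adjusted p = 0.000291), but the other 2 probe sets differed by 0.31 and 0.18, and the call was lost on the mean of probe sets (-0.20). With siP53 it rose to 10.05, 9.48 and 10.01, by 0.73 ± 0.16 (adjusted p = 0.00299), and the other 2 probe sets by 0.82 and 0.49. With siP53 array 2 alone the difference was 0.36 (adjusted p = 0.144).

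**Figure D4:**
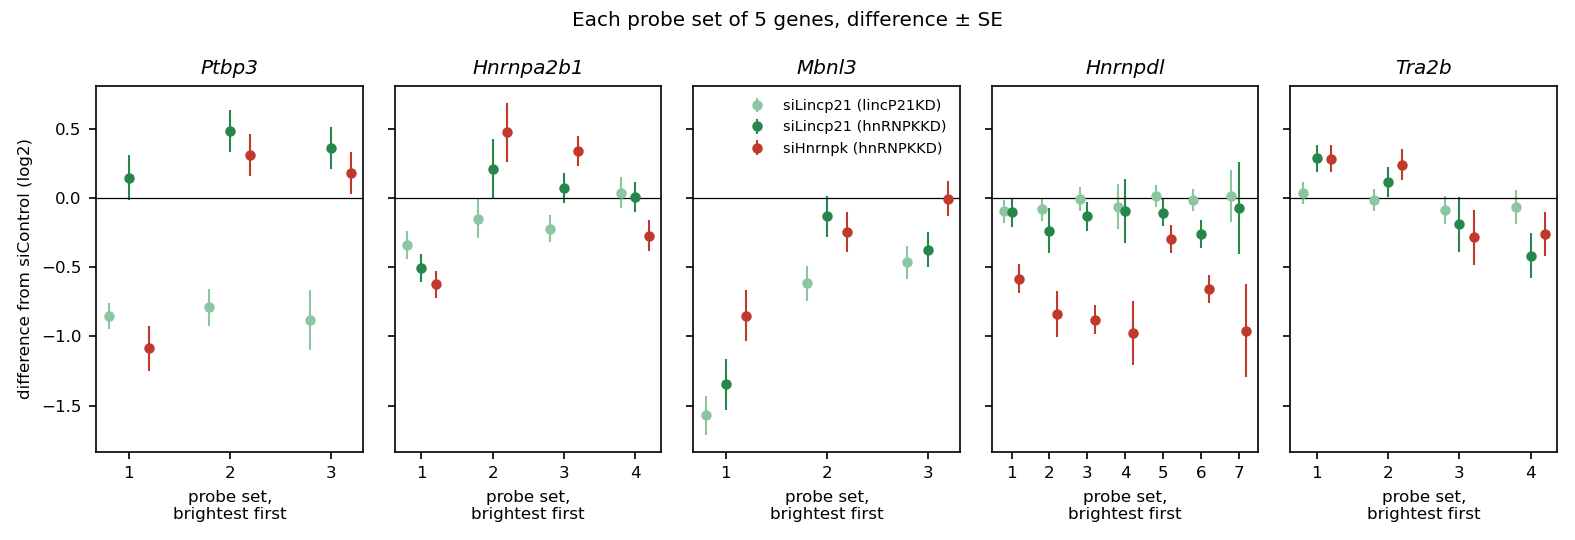
Difference from siControl (log2, points with SE bars) on each probe set of 5 genes, ordered from the brightest, for siLincp21 in both experiments and siHnrnpk. The 7 Hnrnpdl probe sets are all lower with siHnrnpk, while for Ptbp3 only the brightest of 3 is lower with it and for Hnrnpa2b1 the brightest and the dimmest of 4.

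Beside Ptbp2 and Ptbp3, the hnRNPs that fell with siHnrnpk were Hnrnph1, Hnrnpa2b1 and Hnrnpdl. Hnrnpdl, a paralog of Hnrnpd, had the same sign on every probe set. It read 13.17, 13.03 and 13.08 in the controls, 12.55, 12.46 and 12.53 with siHnrnpk, 12.98, 12.91 and 13.09 with siLincp21 and 13.39, 13.14 and 13.47 with siP53. The siHnrnpk arrays lay below all other arrays of the experiment. They differed by -0.58 ± 0.10 from the controls (adjusted p = 0.00091) and by -0.48 ± 0.10 from siLincp21 (adjusted p = 0.00317), and the 6 other probe sets differed from the controls by -0.97 to -0.29. Both calls held under every alternative.

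Hnrnph1, which binds G-rich tracts, was 10.74, 10.92 and 10.93 in the controls, 10.10, 10.12 and 10.29 with siHnrnpk and 10.51, 10.52 and 10.41 with siLincp21. Both knockdowns lay below the controls on every array, with differences of -0.69 ± 0.11 (adjusted p = 0.000495) and -0.39 ± 0.11 (adjusted p = 0.0179). Its second probe set differed by -0.30 and -0.14. With siP53 it read 10.96, 11.34 and 11.08, above every siHnrnpk array. The siLincp21 call was lost without siControl replicate 2 (-0.36) or 3 (-0.35) or siLincp21 replicate 3 (-0.35), and on the mean of probe sets (-0.26).

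Hnrnpa2b1, an hnRNP A/B protein that represses exons, was 12.63, 12.37 and 12.65 in the controls, 11.91, 11.87 and 11.99 with siHnrnpk and 12.14, 11.99 and 12.003 with siLincp21. All knockdown arrays were below the controls on the chosen probe set, with differences of -0.62 ± 0.10 (adjusted p = 0.000417) and -0.51 ± 0.10 (adjusted p = 0.00166), but its 3 other probe sets ran from -0.27 to 0.47 with siHnrnpk and from 0.01 to 0.21 with siLincp21, and both calls were lost on the mean of probe sets (-0.02 and -0.05). In the lincP21KD experiment siLincp21 lowered it from 13.24 and 13.19 to 12.90, 12.98 and 12.74, a difference of -0.34 ± 0.10 (adjusted p = 0.0484). That call was lost without either control array or siLincp21 replicate 1 or 3 (-0.37 to -0.27). It was also lost with no filter, with the replicate block, with only the 2 groups in the fit and on the mean of probe sets (-0.17). The 3 other probe sets ran from -0.22 to 0.04 there.

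Hnrnpul2, an hnRNP U paralog, rose in all 3 knockdowns of the hnRNPKKD experiment, each set against the same 3 control arrays. It read 8.99, 8.98 and 8.78 in the controls, 9.23, 9.23 and 9.44 with siP53, 9.25, 9.25 and 9.25 with siLincp21 and 9.32, 9.32 and 9.24 with siHnrnpk. Every knockdown array was above every control, by 0.38 ± 0.09 (adjusted p = 0.00534), 0.33 ± 0.09 (adjusted p = 0.015) and 0.37 ± 0.09 (adjusted p = 0.00847), and the second probe set rose further, by 1.01, 0.93 and 0.82. The siLincp21 call was lost without siControl replicate 3 (0.27, adjusted p = 0.0705). The siP53 call was lost with siP53 array 2 alone (0.32) and with only the 2 groups in the fit (0.38, adjusted p = 0.0531). In the lincP21KD experiment Hnrnpul2 was not called, at a mean of 10.17 in the controls, 10.29 with siP53 and 10.23 with siLincp21.

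Hnrnpm, which binds GU-rich RNA, fell with siLincp21 from 9.84, 10.07 and 10.06 to 9.58, 9.47 and 9.32, a difference of -0.53 ± 0.15 (adjusted p = 0.0182) between groups that did not overlap. It was lost without siControl replicate 2 or 3 or siLincp21 replicate 3 (-0.50 to -0.47). Hnrnpul1, the other hnRNP U paralog, differed by -0.40 ± 0.11 (adjusted p = 0.0154), lost without siLincp21 replicate 1 (-0.37) or 2 (-0.36). Syncrip rose with siP53 from 10.21, 10.14 and 10.18 to 10.61, 10.41 and 10.73. All siP53 arrays were higher, by 0.41 ± 0.10 (adjusted p = 0.00445), but 2 of its 4 other probe sets were lower, and with siP53 array 2 alone the difference was 0.23 (adjusted p = 0.127). Hnrnpr, the leading member of the time course, was not called in any siRNA comparison, with differences between -0.27 and 0.26 against the controls.

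Of the 9 SR members, 3 fell and 1 rose with siHnrnpk, and 2 fell and 1 rose with siLincp21 in the hnRNPKKD experiment. Srsf6, which binds exonic enhancers, was 11.33, 11.41 and 11.43 in the controls and 10.64, 10.77 and 10.87 with siHnrnpk, lower on every array with a difference of -0.63 ± 0.12 (adjusted p = 0.00179). Its 3 other probe sets differed by -0.79 to -0.65, and the call held under every alternative. Srsf2 was 10.86, 11.06 and 11.07 in the controls, 10.46, 10.44 and 10.59 with siHnrnpk and 10.59, 10.48 and 10.29 with siLincp21. Neither knockdown overlapped the controls. The differences were -0.50 ± 0.10 (adjusted p = 0.00315) and -0.54 ± 0.10 (adjusted p = 0.00171), and both calls were lost on the mean of probe sets (-0.27 and -0.46). Srsf10, a splicing repressor when dephosphorylated, differed by -0.49 ± 0.16 with siHnrnpk (adjusted p = 0.0423), and leaving out any 1 array of the 2 groups ended the call (-0.53 to -0.42).

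Tra2a, the paralog of Tra2b, was not called with siHnrnpk until the replicate numbers were used as a block. The labels do not say that these numbers pair arrays. It read 10.25, 9.63 and 10.14 in controls 1, 2 and 3 and 9.70, 9.29 and 9.54 on the same-numbered siHnrnpk arrays, lower in every pair although the groups overlapped. Its difference of -0.50 had an adjusted p of 0.111 without the block and 0.00491 with it, and its 3 other probe sets differed by -0.15 to 0.02. In a block fit of only these 2 groups, chosen after seeing the data, 20 members were called, among them Srsf5 (-0.46, adjusted p = 0.00437), Srsf11 (-0.25, adjusted p = 0.0473) and Rbfox2 (-0.23, adjusted p = 0.0414). The share of all genes called in that fit is not given here, so the count does not set the members apart.

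Srsf5, another SR protein, was 10.56, 10.87 and 10.97 in the controls, 10.03, 10.23 and 9.79 with siLincp21 and 9.74, 10.65 and 9.89 with siP53. It differed by -0.78 ± 0.21 (adjusted p = 0.0135) and -0.70 ± 0.21 (adjusted p = 0.0181), and siP53 array 2 was within the range of the controls. Of the 3 siP53 arrays, array 2 had both the lowest Actb difference and the most Cdkn1a (11.41 against 10.52 and 10.61). These 2 traits cannot be told apart on 1 array. With that array alone the siP53 difference was -0.15, and leaving out siP53 replicate 1 or 3 or siControl replicate 2 or 3 also ended that call (-0.67 to -0.53). The siLincp21 call was lost without siLincp21 replicate 3 (-0.67) or siControl replicate 3 (-0.70). That siLincp21 array, the lowest of its group, had an Actb difference of 0.76, against 0.44 and 0.40 on replicates 1 and 2. Both Srsf5 calls were kept with the Actb difference as a covariate. In the lincP21KD experiment Srsf5 was not called, at a mean of 12.40 in the controls, 12.44 with siLincp21 and 12.50 with siP53.

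Tra2b ran the other way and rose with siP53, from 11.98, 11.93 and 11.93 to 12.60, 12.43 and 12.70, by 0.63 ± 0.09 (adjusted p = 0.000198), with 3 of 3 other probe sets higher. The lincP21KD arrays, where it was not called, read 12.83 and 12.82 in the controls and 12.94, 12.97 and 12.84 with siP53. In the hnRNPKKD experiment it also rose with siLincp21 to 12.35, 12.11 and 12.24 (0.29 ± 0.09, adjusted p = 0.0361) and with siHnrnpk to 12.26, 12.225 and 12.20 (0.28 ± 0.09, adjusted p = 0.0406). There 2 of 3 other probe sets were lower and the mean of probe sets was -0.018 and -0.0039. Leaving out any 1 siHnrnpk or control array ended the siHnrnpk call (0.27 to 0.30), and leaving out siLincp21 replicate 1 or 3 or any control array the siLincp21 call (0.23 to 0.30).

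Direct tests within the hnRNPKKD experiment compared the knockdowns. Between siHnrnpk and siLincp21, 3 members were lower with siHnrnpk (Ptbp3, Mbnl2 and Hnrnpdl) and 0 higher, against 15.4% and 12.2% of all genes. Ptbp3 differed by -1.23 on the chosen probe set but by only -0.18 on each of the other 2. Mbnl1 (-0.03, 95% interval -0.27 to 0.22), Ptbp2 (0.16, -0.14 to 0.47) and Mbnl3 (0.50, 0.10 to 0.89, adjusted p = 0.0598) did not pass the test. Between siHnrnpk and siP53, 20 members were lower with siHnrnpk and 0 higher, against 22.5% and 22.9% of all genes. The 20 included 6 of 7 tissue regulators, 9 of 20 hnRNPs and 5 of 9 SR members, with Mbnl3 (-1.93 ± 0.18), Ptbp3 (-1.81 ± 0.16) and Hnrnph1 (-0.96 ± 0.11) the largest. Celf2 (-0.94) and Hnrnpdl (-0.82) followed. The other 2 probe sets differed less, by -0.90 and -0.84 for Mbnl3 and by -0.51 and -0.31 for Ptbp3. On the mean of probe sets 15 of the 20 calls were kept, without Hnrnpa2b1, Srsf2, Srsf11, Celf1 and Elavl1. For Celf1 and Elavl1, both tissue regulators, only 1 of 4 other probe sets had the same sign. The siP53 group held both extremes of the Actb difference. With that difference as a covariate 15 of the 20 calls were kept, without Hnrnpd, Ptbp2, Srsf1, Srsf11 and Celf1. With siP53 array 2 alone 11 were kept, and Hnrnpa0, Hnrnpul1, Tra2b and Mbnl1 (-0.38, adjusted p = 0.0644) were lost as well. The calls of Mbnl3, Ptbp3, Hnrnph1, Celf2 and Hnrnpdl held in both. Of 15 fibroblast markers 10 were lower with siHnrnpk than with siP53 and 0 higher, and their part in the count was not tested.

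The same siRNA target was used in both experiments, and the difference of the effects was tested. For siP53, 3 members had a higher effect in the hnRNPKKD experiment and 0 a lower one, against 7.14% and 7.35% of all genes. These were Mbnl1 (0.85 ± 0.15, adjusted p = 0.0014), Celf2 (0.77 ± 0.19, adjusted p = 0.0111) and Tra2b (0.53 ± 0.12, adjusted p = 0.00622). Without siP53 replicate 2 of the hnRNPKKD experiment 11 members differed, with no share of all genes given for that fit. Without siControl replicate 2 of the lincP21KD experiment the Celf2 call was lost (0.74, adjusted p = 0.0589). For siLincp21, Ptbp3 and Mbnl1 had a higher effect in the hnRNPKKD experiment (2 members, 0 lower), against 4.63% and 3.51% of all genes. Mbnl1 differed by 0.62 ± 0.15 (adjusted p = 0.0178). Without siControl replicate 2 of the lincP21KD experiment 1 member was called, Ptbp3, and Mbnl1 differed by 0.53 (adjusted p = 0.133). Mbnl3 and Ptbp2 fell with siLincp21 in both experiments, and their effects differed by 0.23 (95% interval -0.31 to 0.76) and -0.23 (-0.63 to 0.18).

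Other genes of splicing were counted in the same way. Of all tested genes, 12.9% rose and 6.24% fell with AdenoCre, and 7.47% and 4.39% with siLincp21 in the lincP21KD experiment. In the hnRNPKKD experiment these shares were 17.2% and 11.8% with siLincp21, 19.3% and 19.2% with siP53, and 14.1% and 12.8% with siHnrnpk. Whether the lists below differ from these shares was not tested. Of 58 tested genes of the core spliceosome, 2 rose and 3 fell with AdenoCre, 0 rose and 2 fell with siLincp21 in each siRNA experiment, 6 rose and 6 fell with siP53 in the hnRNPKKD experiment, and 1 rose and 7 fell with siHnrnpk. With AdenoCre, Snrnp40, a U5 protein of that list, fell (-0.71 ± 0.12) and Sf3b5 rose (0.50 ± 0.10). With siHnrnpk, Snrpc, a U1 protein, fell (-0.46 ± 0.09) and Snrpb rose (0.44 ± 0.10). Of 44 other splicing regulators, 4 rose and 3 fell with AdenoCre, 4 and 8 with siLincp21 and 5 and 15 with siHnrnpk in the hnRNPKKD experiment, with a median of -0.15 in the last. Srsf9 and Srsf3, 2 further SR proteins, differed by -0.88 ± 0.10 (adjusted p = 4.17e-05) and -0.83 ± 0.09 (adjusted p = 4.31e-05) with siHnrnpk.

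Rbm38, an RNA-binding protein that p53 induces, was 1.00 ± 0.16 higher with AdenoCre (adjusted p = 0.00504) and differed by -0.85 ± 0.09 and -1.76 ± 0.17 with siP53 in the lincP21KD and hnRNPKKD experiments. Celf5 and Celf4, CELF members known from brain, fell with siP53. In the lincP21KD experiment the differences were -2.53 ± 0.11 and -1.11 ± 0.11, and in the other experiment -3.45 ± 0.20 and -1.66 ± 0.17. Celf4 also fell with siLincp21 in the lincP21KD experiment (-0.77 ± 0.11) and with siHnrnpk (-1.25 ± 0.17). Of 12 kinases and importers of SR proteins, 0 rose and 1 fell with AdenoCre, the importer Tnpo1 (-0.39 ± 0.12), against 12.9% and 6.24% of all tested genes. With siHnrnpk Tnpo1 differed by -0.67 ± 0.18 and Clk1, a kinase that phosphorylates SR proteins, rose by 0.36 ± 0.10.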

How the data were processed

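RNA was measured on 30 Affymetrix arrays. The deposited values are log2 signal, which the authors made with RMA (version not given in the sources used here), per the submitters' processing notes. They were used without further scaling. Of 45101 probe sets, 34958 had 1 gene symbol, and the lowest 40% by mean (limit 4.544) were left out. Each experiment had its own limma fit (version 3.58.1, R 4.3.3, plain eBayes), with the 5 times as a block for the virus effect, and jointly for differences between the siRNA experiments. P-values carry the Benjamini-Hochberg adjustment over 12674 genes, and a call is an adjusted p below 0.05. The scripts were tested on simulated data. Every member could be named; values on every array are given for at least the 6 called members with the largest change in each direction of a comparison, and up to 3 genes with the smallest adjusted p come from each other list. The members and lists were chosen with earlier results of these data known. Same-numbered arrays deviated together most evenly for siHnrnpk and its controls (correlations of 0.166 to 0.216 over 3 pairs). The main siRNA fits paired no arrays. The replicate number was a block only in alternatives, over all groups of an experiment or, for siHnrnpk, also over these 2 groups alone. A pairing of these 2 groups rests on the data and not the labels. In the other group pairs correlations ran from -0.218 to 0.694, which cannot show that those arrays were unpaired. Precision rests on the number of arrays. The alternatives were other scalings, filters, probe set means, variance settings, array weights, blocks, groups in the fit and arrays left out. The estimation of the array weights did not fully converge, and results with them are given as run. Probe set means took in every probe set with 1 gene symbol, also those below the filter, while other probe sets are listed only above it. Promoter windows are RefSeq's (GRCm38.p6).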

Additional observations from a re-analysis of the deposited data

Results flagged for a closer look

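Each of the 72 groups of 5 time course arrays was searched for an array far from the others, which chance gives in about 1 of 20, and 3 were found. Mbnl2 stood at 11.21 on the AdenoCre 0 h array, above the next at 10.75. Celf2 stood at 9.40 on the AdenoCre 6 h array, below the next at 9.68. Elavl1 stood at 11.50 on the AdenoCre 9 h array, below the next at 11.60.

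The effect of a siRNA differed between the hnRNPKKD and lincP21KD experiments for 5 gene and siRNA pairs by a test of the difference. With siP53 it was larger in the hnRNPKKD experiment by 0.53 for Tra2b, 0.85 for Mbnl1 and 0.77 for Celf2. With siLincp21 it was higher there by 1.00 for Ptbp3 and 0.62 for Mbnl1. The siP53 arrays of the hnRNPKKD experiment also had the widest range of the Actb 3′ to 5′ difference (0.17 to 1.14), and its part in the siP53 differences was not tested.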

How the results depend on the processing

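Of 76 calls of a member in a comparison, 29 held under every alternative, and of 1264 recomputed values 1091 kept direction and call, 171 lost the call and 2 reversed: Tra2b with siLincp21 (-0.018) and siHnrnpk (-0.0039) in the hnRNPKKD experiment, on the mean of probe sets. Counts of called members moved by over 1.5 times as follows, and the cause was not tested. The shares of all genes called under these alternatives are not given here. AdenoCre against AdenoGFP (8 called): 15 with centred arrays, 13 with trended and robust variances, 14 with array weights, 2 without the time block, and 2 to 7 leaving out a time. Slope in AdenoCre (2): 0 centred, 8 trended, 1 with weights, 0 on log2(hours + 1) and 0 to 0 leaving out a time. siP53 in the lincP21KD experiment (0): 1 centred, 1 with the 60% filter, 1 on the mean of probe sets, 2 trended, 2 with weights, 2 with the replicate block, 1 with only the 2 groups, and 0 to 1 leaving out an array. siLincp21 there (4): 2 to 4 leaving out an array. In the hnRNPKKD experiment, siP53 (8): 13 centred, 27 with weights, 7 to 19 leaving out an array. siLincp21 (12): 21 with weights, 6 to 10 leaving out an array. siHnrnpk (14): 23 with weights and 23 with the Actb difference as a covariate, chosen after seeing the data. siHnrnpk against siLincp21 (3): 5 with quantile scaling, 5 centred, 6 with the 60% filter, 6 on the mean of probe sets, 6 trended, 12 with weights, 6 with the replicate block, 9 with only the 2 groups, and, chosen after seeing the data, 12 with the Actb covariate and 9 without the siP53 group. Differences between experiments: siP53 (3), 21 with weights and 2 to 11 leaving out an array; siLincp21 (2), 8 with weights and 1 to 2 leaving out an array. With the replicate block siHnrnpk had 15 calls, all 14 and Tra2a. Whether the numbers pair arrays, in this or in the other comparisons, could not be settled. In the hnRNPKKD experiment siP53 had 12 calls and siLincp21 15 with the block, against 8 and 12 without it.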
